A study of Mus musculus with 39 samples.

Results

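Interferon-responsive genes were followed in the lungs of mice exposed to mainstream tobacco smoke (MTS). The list held 41 genes that are switched on by interferons, and its members were all probes that carry the symbol of a listed gene in the annotation of the array. There were 42 such probes for 39 genes, of 20868 gene probes on the array, and all 42 passed the filter on dim probes that left 17560 for testing. Oas1a and Ifi44 had no probe under their own symbol and are not analysed here. Sp100 had 3 probes and Parp14 had 2, and these were read apart.

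Interferons are secreted proteins of antiviral defence. Type I and type III interferons act through a complex that holds Stat2 and Irf9 and binds a DNA element called ISRE, and interferon gamma acts through a DNA element called GAS. The genes switched on in this way encode sensors of foreign RNA and DNA, proteins that block viral replication, GTPases that attack intracellular pathogens, the immunoproteasome and the peptide transporter of antigen presentation. In lung, epithelial cells and macrophages are among the cells that respond, and a low level of these transcripts is present without infection.

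The mice were male C57BL/6 × CBA F1 hybrids, 8 to 10 weeks old, exposed nose-only to 2 cigarettes daily on 5 days per week. Smoke groups received MTS for 12 weeks (n = 4) or 6 weeks (n = 5), and their sham groups were kept in restrainers only (n = 5 each). The study describes 5 mice per group and left out 1 array that was an outlier with high background. Among the arrays used here 12 week smoke is the only group with 4. Another set of smoke and sham groups was given a break of 6 weeks after the exposure (n = 5 each), called 12 or 6 week smoke and break and 12 or 6 week break sham. The study's methods place the killing 3 h after the last cigarette and, for the break groups, after the break, whereas the sample labels give 3 h for every group. All mice shared strain, sex and restraint, and sham mice are a control for restraint but not for the smoke stream. RNA came from a piece of lung of 1 mouse per array, a mixture of all lung cells, so that fewer cells of a type and less RNA per cell cannot be told apart. Surfactant transcripts Sftpb and Sftpc, which mark alveolar type II cells, were above the background threshold on 39 of 39 arrays. Each value below is a log2 ratio of lung RNA to a common mouse reference RNA, so that levels of different probes cannot be ranked against each other.

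The median Cy5 signal of an array ranged between 268 and 1532 and stood 2.2 to 8.94 times above background, with 48.4 to 94.6% of the probes above the threshold. The array labelled 6 week sham m2 stood apart. Cyp1a1 and Cyp1b1, targets of the smoke-activated aryl hydrocarbon receptor, read 6.46 and 2.00 on it. The 9 smoke arrays spanned 5.07 to 8.06 for Cyp1a1 and 1.47 to 2.32 for Cyp1b1, against 0.45 to 2.81 and -1.74 to -0.28 on the other 29 arrays. It was kept under its label, and the counts and medians of the members in comparisons that use it are also given without it.

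The letters of the ISRE core (GAAA, 2 bases of any kind and GAAA, on either strand, overlaps counted) were searched in the 250 bases before the start of each gene in RefSeq (GRCm38.p6). A promoter was listed for 33 of the 41 genes. The letters were found for 13 of them (39.4%), against 3.5% of 27025 genes in the same table. The GAS letters (TTCNNNGAA, the same on both strands) were found for 8 (24.2%), against 8.1%, and 3 held both. These matches describe the DNA only and say nothing of a factor bound there. The stretches shown belong to the 6 members with ISRE letters and the smallest p at 12 weeks. They were chosen for holding the letters. They show only how the repeat of GAAA, or of TTTC where the element runs the other way, is laid out in each. They are written 5′ to 3′ on the gene's strand with the ISRE letters in capitals.
Ifi203, chr1:173942498-173942547, minus strand: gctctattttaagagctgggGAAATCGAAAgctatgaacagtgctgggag
Isg15, chr4:156200855-156200916, minus strand: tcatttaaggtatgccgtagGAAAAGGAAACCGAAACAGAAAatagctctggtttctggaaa
Bst2, chr8:71537567-71537622, minus strand: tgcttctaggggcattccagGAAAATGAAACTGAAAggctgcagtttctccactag
Gbp3, chr3:142559979-142560034, plus strand: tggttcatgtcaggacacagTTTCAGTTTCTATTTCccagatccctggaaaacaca
Ifit1, chr19:34640765-34640833, plus strand: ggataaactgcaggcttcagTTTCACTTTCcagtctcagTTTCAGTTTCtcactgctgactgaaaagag
Igtp, chr11:58199502-58199551, plus strand: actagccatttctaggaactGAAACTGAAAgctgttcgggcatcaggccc
In Isg15 3 copies overlap, in Bst2 and Gbp3 2 copies overlap, and in Ifit1 2 copies stand apart. In Ifi203 the single copy ends 25 bases before the start, and in Igtp 24 bases before it.

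The first question was whether the interferon genes differ between lungs after 12 weeks of smoke and their sham lungs. Of the 42 probes 1 passed an adjusted p of 0.05 (limma, Benjamini-Hochberg over 17560 probes, 76 or 0.433% of which passed), and it was lower in smoke lungs, as were 0.0569% of all probes. That probe was Ifi203, which encodes a nuclear DNA-binding protein of the interferon-inducible p200 family. Most of the others leaned the same way without passing. The log2 fold change was below 0 for 33 of 42 probes (78.6%), against 49% of all probes, with a median of -0.13 against 0.01. At an unadjusted p under 0.05, 8 probes were lower (19%, against 3.86% of all probes) and 1 was higher (2.38%, against 5.51%). Smoke and sham arrays did not overlap for 6 probes lower in smoke (14.3%, against 1.38%) and for 0 higher in smoke (against 1.99%). These 6 were Irf7, Zbp1, Isg15, Usp18, Ifi203 and 1 of the 3 Sp100 probes.

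**Figure D1:**
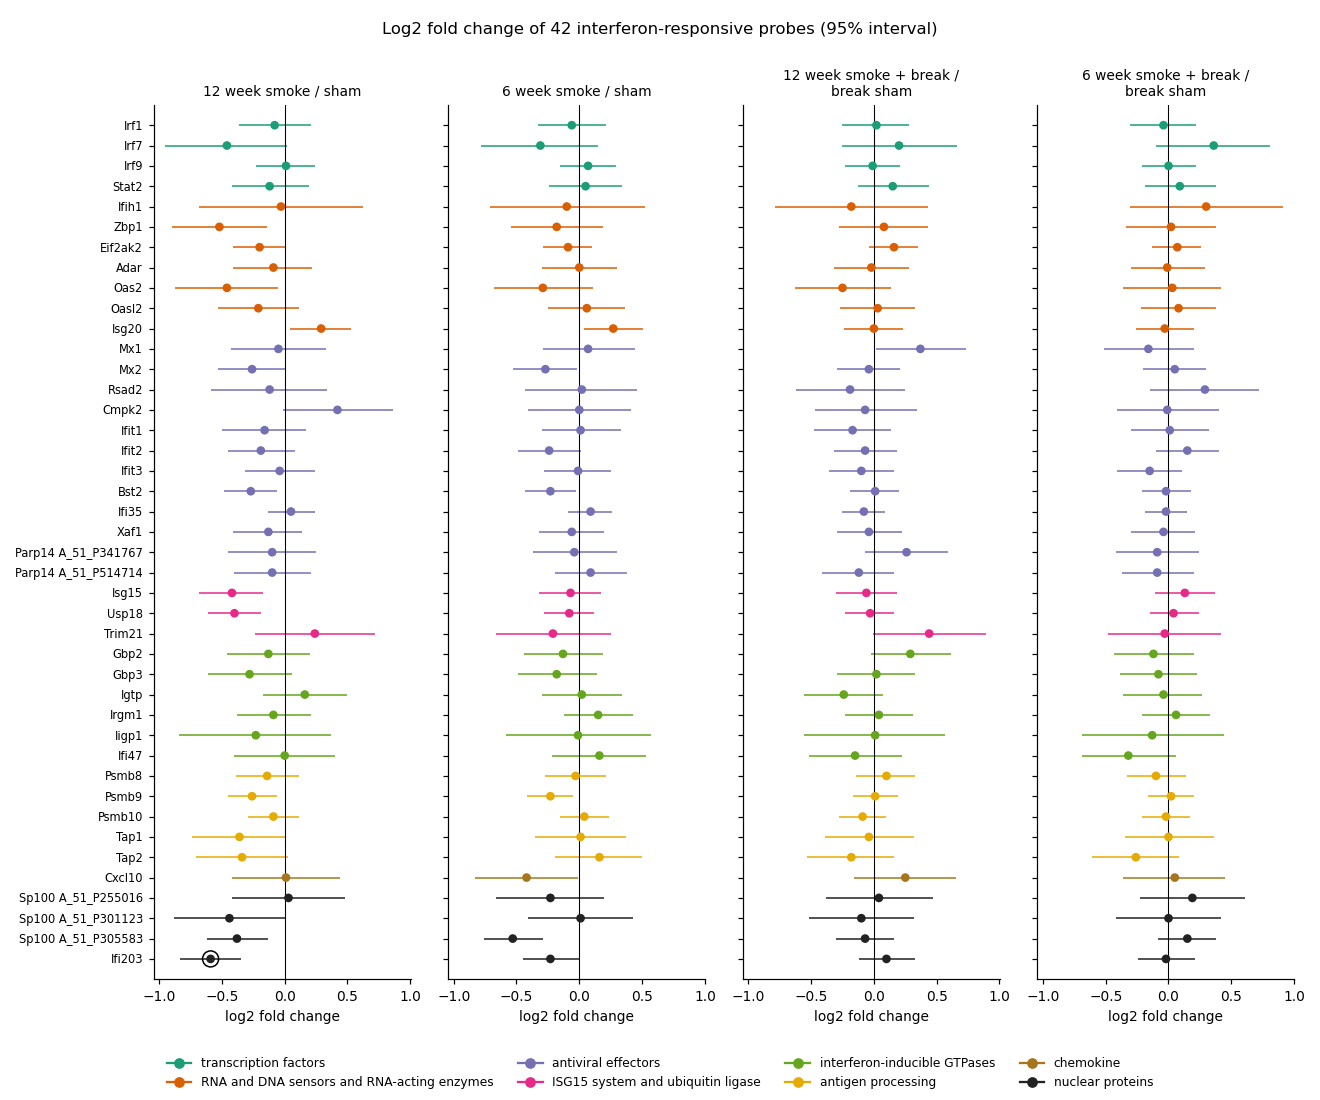
Log2 fold change (points) with its 95% interval (lines) for each of the 42 probes in 4 comparisons, coloured by role; a ring marks an adjusted p under 0.05. At 12 weeks of smoke 33 of 42 points lie left of 0 and only Ifi203 is ringed, while in the break comparisons the points scatter around 0 with medians of -0.01 and 0.00.

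Ifi203 read -1.36, -1.37, -1.19 and -1.49 in the 12 week smoke lungs, against -0.89, -0.86, -0.58, -0.68 and -0.78 in the 12 week sham lungs. Every smoke lung was below every sham lung. The log2 fold change was -0.59 (SE 0.12, adjusted p = 0.00893, limma), which is 0.663 of the sham level. Within each of the 4 runs of exposure-date labels that hold both groups it lay between -0.71 and -0.48. With 1 array of each group per run and no overlap, the sign within runs was fixed. The call was lost without 12 week smoke m2 (adjusted p = 0.0667) or m4 (adjusted p = 0.0631), and when only the 2 groups compared were fitted (-0.58, adjusted p = 0.282).

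Among the transcription factors, Irf7, the master regulator of type I interferon genes, read -0.79, -1.27, -0.79 and -0.89 in 12 week smoke and -0.30, -0.75, -0.23, -0.55 and -0.35 in 12 week sham. The groups did not overlap, though their nearest values were close, and the probe was above the background threshold on 3 arrays of each group only. Its log2 fold change was -0.46 (SE 0.24, adjusted p = 0.569). Stat2, a subunit of the factor that binds ISRE, read 0.53, 0.99, 0.95 and 0.93 in smoke and 0.96, 1.02, 0.93, 1.02 and 0.89 in sham, with a log2 fold change of -0.12 (SE 0.15). Irf9, its partner, had 0.01, and Irf1, which acts downstream of interferon gamma, had -0.08.

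Of the sensors and enzymes that act on RNA, 6 of 7 probes were below 0 with a median of -0.20. Zbp1, a sensor of nucleic acids in the Z form, read -1.0, -0.58, -0.67 and -0.65 in 12 week smoke, against 0.32, -0.38, -0.29, 0.01 and -0.47 in 12 week sham. All smoke values were below the sham values, and the log2 fold change was -0.52 (SE 0.19, adjusted p = 0.309). Oas2, which makes the oligoadenylates that activate RNase L, had -0.46 (SE 0.20, adjusted p = 0.452). Isg20, a 3′ to 5′ exonuclease of RNA, was the exception of the group. It read 0.21, 0.37, 0.24 and 0.11 in smoke and 0.21, -0.01, -0.03, -0.17 and -0.21 in sham, with a log2 fold change of 0.29 (SE 0.12, adjusted p = 0.436).

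The ISG15 system attaches the ubiquitin-like protein Isg15 to other proteins, and Usp18 removes it. Usp18 read -1.35, -1.44, -1.33 and -1.48 in 12 week smoke and -0.77, -1.08, -1.22, -0.83 and -0.92 in 12 week sham. Isg15 read -2.23, -2.09, -2.03 and -2.06 in smoke and -1.63, -1.83, -1.63, -1.81 and -1.80 in sham. Neither overlapped between the groups. A lower smoke value within each of the 4 runs follows from this and adds nothing to it. The log2 fold changes were -0.40 for Usp18 (SE 0.10, adjusted p = 0.0869) and -0.42 for Isg15 (SE 0.13, adjusted p = 0.164), short of the threshold. Usp18 passed without 6 week break sham m5 (-0.42, adjusted p = 0.0272), with median centring (-0.50, adjusted p = 0.0318) and with marked spots left out (-0.40, adjusted p = 0.0405). Trim21, an antibody receptor and ubiquitin ligase, read -0.10, -0.04, -0.12 and 0.32 in smoke and -0.42, -0.32, -0.42, 0.09 and -0.02 in sham (log2 fold change 0.24, SE 0.23). The scanner software left its spot unmarked on 8 arrays only, 2 of 12 week smoke and 1 of 12 week sham.

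**Figure D2:**
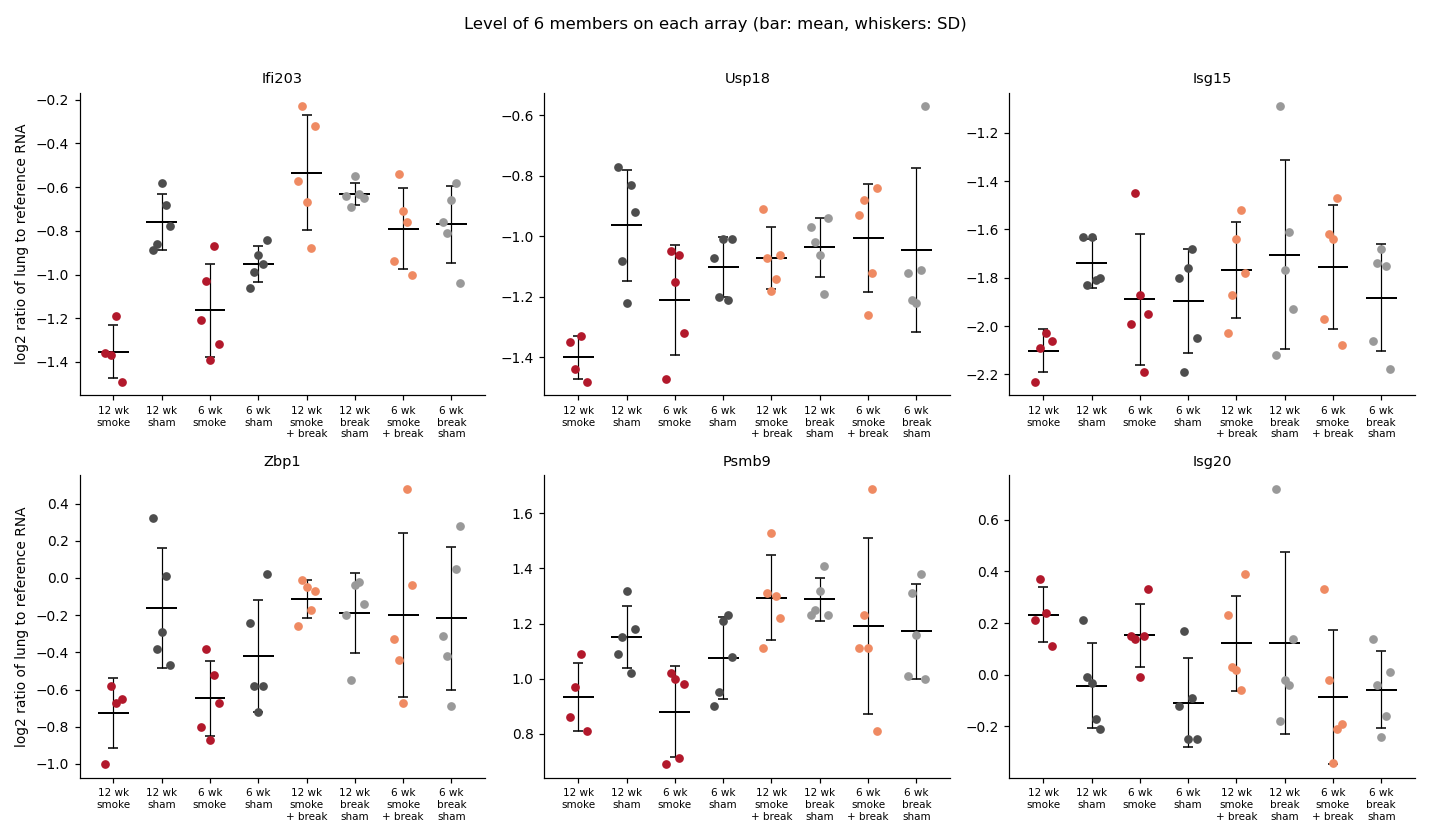
Log2 ratio of lung to reference RNA for Ifi203, Usp18, Isg15, Zbp1, Psmb9 and Isg20 on each array (points), with the group mean (bar) and SD (whiskers). In the first 4 panels the 12 week smoke points lie below all 12 week sham points; Ifi203 spans -1.49 to -1.19 in 12 week smoke and -0.89 to -0.58 in 12 week sham.

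The antigen processing genes were all below 0 at 12 weeks, 5 of 5 probes with a median of -0.26, and none passed. Psmb9, a catalytic subunit of the immunoproteasome, read 0.86, 0.97, 1.09 and 0.81 in smoke, against 1.09, 1.15, 1.32, 1.02 and 1.18 in sham. The groups overlapped slightly, and the log2 fold change was -0.26 (SE 0.10, adjusted p = 0.324). Tap1, a subunit of the peptide transporter of the endoplasmic reticulum, read -0.95, -0.04, -0.46 and -0.52 in smoke and -0.10, -0.03, -0.41, -0.07 and -0.01 in sham, with -0.36 (SE 0.19). Its partner Tap2 had -0.34, and the other immunoproteasome subunits Psmb8 and Psmb10 had -0.14 and -0.09. Psmb8, Psmb9, Tap1 and Tap2 lie on chromosome 17.

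Of the 12 probes of antiviral effectors, 10 were below 0 with a median of -0.11, and none passed. Bst2, which tethers budding virions to the cell surface, read -0.45, -0.47, -0.61 and -0.40 in smoke and -0.09, -0.16, -0.21, -0.68 and -0.30 in sham (log2 fold change -0.27, SE 0.10, adjusted p = 0.362). Sham m4 alone was below the smoke arrays. Cmpk2, a mitochondrial nucleotide kinase, had the highest value of the list, 0.42 (SE 0.21, adjusted p = 0.554), but it was above the threshold on 18 of 39 arrays, 4 of smoke and 1 of sham. The probe passed the filter on dim probes through 12 week smoke alone, the group in which it was high. It read 0.01, 0.57, 0.00 and 0.30 in smoke and -0.51, -0.38, -0.16, -0.27 and 0.12 in sham. Ifit1, Ifit2 and Ifit3, which bind viral RNA, had -0.16, -0.19 and -0.04. Mx1 and Mx2, dynamin-like GTPases against viruses, had -0.05 and -0.26, and Rsad2, or viperin, had -0.12.

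The 6 interferon-inducible GTPases had a median of -0.11 and 4 were below 0. Gbp3, a guanylate-binding protein, read 0.97, 0.73, 0.83 and 0.97 in 12 week smoke and 0.95, 0.86, 1.44, 1.34 and 1.19 in 12 week sham (log2 fold change -0.28, SE 0.16). Igtp, also called Irgm3, read 0.74, 1.70, 1.20 and 1.12 in smoke and 0.81, 1.14, 0.94, 0.84 and 1.19 in sham (0.16, SE 0.17). The groups overlapped in both. Cxcl10, a chemokine that attracts T and NK cells, read -2.34, -1.61, -1.89 and -1.85 in smoke and -1.99, -2.20, -1.42, -2.16 and -1.95 in sham, with a log2 fold change of 0.01 (SE 0.21).

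Sp100 encodes a protein of nuclear bodies that represses viral DNA and is induced by interferon. It is among the genes the study listed from these same arrays, so a decrease in it is not independent evidence. Its 3 probes gave different values. The probe A_51_P305583 read 0.78, 1.34, 1.17 and 1.60 in 12 week smoke and 1.35, 1.88, 1.40, 1.64 and 1.62 in 12 week sham (log2 fold change -0.38, SE 0.12, adjusted p = 0.207). The probe A_51_P301123 read -0.37, -0.37, -0.24 and -0.46 in smoke and -0.04, 0.17, -0.10, 0.25 and -0.18 in sham, with no overlap (-0.44, SE 0.22, adjusted p = 0.553). The scanner software left its spot unmarked on 1 array of 12 week smoke and 1 of 12 week sham, and with marked spots left out the direction turned (0.27, adjusted p = 0.922). The probe A_51_P255016 read 1.56, 1.38, 1.08 and 1.06 in smoke, against 0.93, 1.17, 1.06, 1.38 and 1.42 in sham (0.03, SE 0.22, and -0.22 without 12 week smoke m1). Its spot was unmarked on 6 arrays only, 2 of 12 week smoke and 0 of 12 week sham. The first pair was designed on the sequence BC069183 and the last on NM_013673. Mouse Sp100 has near-identical copies on chromosome 1, and the p200 family of Ifi203 is a cluster of similar genes, so these probes may read more than 1 gene. No ISRE or GAS letters were found in the 250 bases before the 2 listed starts of Sp100.

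At 6 weeks of smoke 0 of 42 probes passed (limma), against 11 of all probes (0.0626%). At an unadjusted p under 0.05, 5 were lower (11.9%, against 3.34%) and 1 was higher (2.38%, against 5.07%). The median was -0.03 against 0.01 for all probes, 24 of 42 probes were below 0 (57.1%, against 47.2%), and smoke and sham arrays overlapped for all 42 members (0.325% of all probes lay apart with smoke lower and 0.524% with smoke higher). With median centring in place of loess the median was 0.02. Sp100 A_51_P305583 read 0.95, 1.70, 1.37, 1.00 and 0.98 in 6 week smoke, against 1.45, 1.20, 1.71, 2.15 and 1.73 in 6 week sham. The lowest of these sham values was that of the array labelled 6 week sham m2, and 6 week smoke m2 was the highest of the smoke arrays. Its log2 fold change was -0.53 (SE 0.11, adjusted p = 0.0707), and the differences within the 4 runs lay between -0.78 and -0.46. Without the array labelled 6 week sham m2 it was -0.63 (SE 0.10, adjusted p = 0.00163) and the probe passed (1 of 42, against 0.188% of all probes), as it did without 12 week smoke and break m4 (adjusted p = 0.0495) or m5 (adjusted p = 0.0297). Without 6 week sham m2 the median of the members was -0.07, 30 of 42 probes were below 0 (against 47.5% of all probes) and 6 were lower at an unadjusted p under 0.05 (against 3.94%).

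The other Sp100 probes had log2 fold changes of -0.23 (A_51_P255016, SE 0.21) and 0.01 (A_51_P301123, SE 0.21) at 6 weeks. Without 6 week sham m2 they were -0.41 (SE 0.20, adjusted p = 0.537) and -0.05 (SE 0.22). Ifi203 read -1.21, -1.03, -1.39, -0.87 and -1.32 in 6 week smoke and -1.06, -0.99, -0.91, -0.95 and -0.84 in 6 week sham. The groups overlapped, and the log2 fold change was -0.23 (SE 0.11, adjusted p = 0.601). Psmb9 read 0.69, 1.02, 1.00, 0.71 and 0.98 in smoke and 0.90, 0.95, 1.21, 1.23 and 1.08 in sham (-0.23, SE 0.09, adjusted p = 0.444). Bst2 had -0.23 (SE 0.10) and Mx2 had -0.27 (SE 0.13). Cxcl10 read -1.52, -2.12, -2.02, -2.09 and -2.43 in smoke and -1.60, -1.63, -1.90, -1.41 and -1.67 in sham, with -0.42 (SE 0.20, adjusted p = 0.583). Isg20 read 0.15, 0.14, -0.01, 0.15 and 0.33 in smoke and -0.12, 0.17, -0.25, -0.09 and -0.25 in sham (0.27, SE 0.12, adjusted p = 0.514). Usp18 and Isg15 had -0.08 (SE 0.10) and -0.07 (SE 0.12), and -0.13 and -0.11 without 6 week sham m2.

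**Figure D3:**
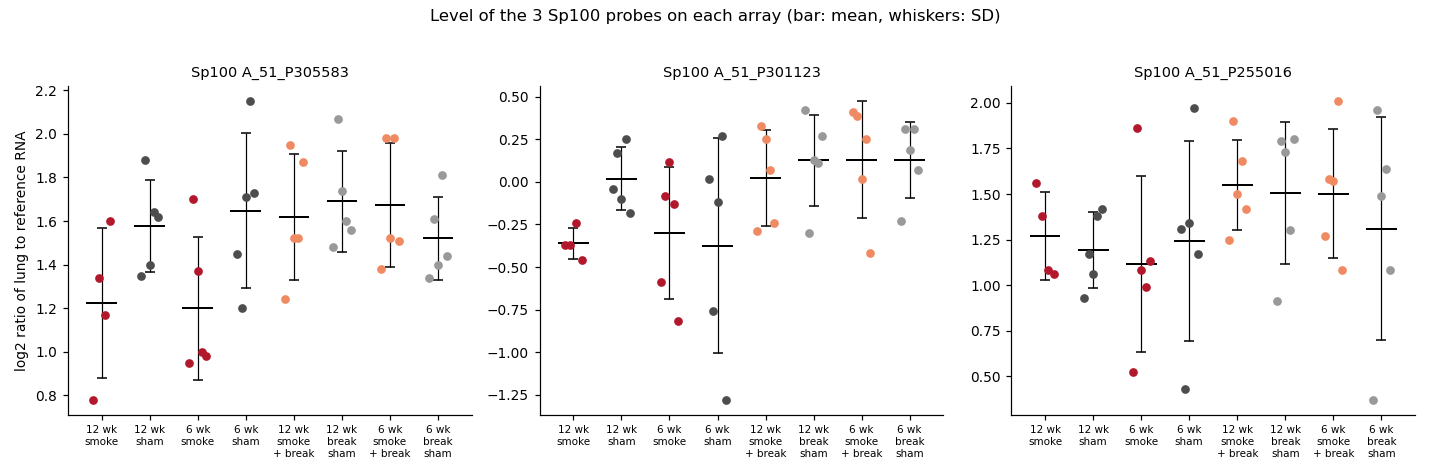
Log2 ratio of lung to reference RNA for the 3 Sp100 probes on each array (points), with the group mean (bar) and SD (whiskers). In A_51_P305583 the smoke groups have the lowest means, 1.22 at 12 weeks and 1.20 at 6 weeks; in A_51_P301123 the 12 week smoke points lie below all 12 week sham points, and A_51_P255016 overlaps between smoke and sham at both durations.

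The 12 week and 6 week effects were then averaged, which uses all 9 smoke and 10 sham arrays. Both Sp100 A_51_P305583 and Ifi203 fell (2 of 42 probes, against 214 or 1.22% of all probes in either direction and 0.233% lower, limma). Sp100 A_51_P305583 had -0.45 (SE 0.08, adjusted p = 0.00288) and Ifi203 had -0.41 (SE 0.08, adjusted p = 0.007). Both passed whichever single array was left out. With only the smoke and sham groups in the fit neither passed (adjusted p = 0.0683 for Sp100 A_51_P305583 and 0.0594 for Ifi203), and Sp100 A_51_P305583 alone was lost without the block for label runs (adjusted p = 0.166) and with spot means (adjusted p = 0.491). The next members by p were Psmb9 (-0.25, SE 0.07, adjusted p = 0.0561), Bst2 (-0.25, SE 0.07, adjusted p = 0.0848), Usp18 (-0.24, SE 0.07, adjusted p = 0.0921) and Isg20 (0.28, SE 0.08, adjusted p = 0.0989). Without the array labelled 6 week sham m2, Bst2 passed too (-0.28, adjusted p = 0.0268), which made 3 of 42 (against 1.62%), with 13 lower at an unadjusted p under 0.05 (against 5.11%) and a median of -0.11. At an unadjusted p under 0.05, 12 probes were lower (28.6%, against 4.72%) and 1, Isg20, was higher (2.38%, against 7.52%). The median was -0.09 against 0.01.

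Whether the effect of 12 weeks differed from that of 6 weeks was tested directly. No probe passed, member or not, for this difference (0 of 17560, 0%), while 2 members, Ifi203 (-0.37, SE 0.16) and Usp18 (-0.32, SE 0.14), had an unadjusted p under 0.05 and both lower at 12 weeks (4.76%, against 2.41%), with 0 higher (against 2.45%). The difference was below 0 for 32 of 42 probes (76.2%, against 51.1%) with a median of -0.11. Without the array labelled 6 week sham m2 only Ifi203 was lower at an unadjusted p under 0.05 (1 of 42, against 2.44%), 30 of 42 probes were below 0 (against 50.8%) and the median was -0.06. Zbp1 had -0.34 (95% interval -0.87 to 0.18), Isg15 -0.35 (-0.70 to 0.00) and Sp100 A_51_P305583 0.15 (-0.19 to 0.48). Each of these 3 intervals reaches 0.

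After the break no probe passed in smoke and break lungs against break sham lungs at either duration, among members or all 17560 probes (0%). In the 12 week arm the member median was -0.01, with 23 of 42 probes below 0 (54.8%, against 47.3%) and 0 lower (against 2.79%) and 1 higher, Mx1 (0.37, against 3.64%), at an unadjusted p under 0.05. In the 6 week arm the median was 0.00, with 22 of 42 below 0 (52.4%, against 50.2%) and 0 lower (against 2.23%) and 0 higher (against 2.09%) at an unadjusted p under 0.05. Ifi203 read -0.57, -0.23, -0.67, -0.88 and -0.32 in 12 week smoke and break, against -0.64, -0.69, -0.55, -0.63 and -0.65 in 12 week break sham. The smoke and break values lay on both sides of the break sham values (log2 fold change 0.10, 95% interval -0.12 to 0.33). In the 6 week arm it had -0.02 (-0.24 to 0.21). Usp18 had -0.03 (-0.23 to 0.16) and Isg15 -0.06 (-0.30 to 0.18) in the 12 week arm. Sp100 A_51_P305583 had -0.07 (-0.30 to 0.16) in the 12 week arm and 0.15 (-0.08 to 0.38) in the 6 week arm.

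The smoke effect was set against the effect left after the break in a test of its own, which shares no arrays between its 2 parts. At 12 weeks 12 of all probes passed (0.0683%) and 0 members did. Ifi203 came nearest, with a difference of -0.69 (SE 0.16, adjusted p = 0.0991), and it passed with median centring (-0.89, adjusted p = 0.0454) and without 12 week smoke and break m4 (-0.78, adjusted p = 0.0471). Lower at an unadjusted p under 0.05 were 6 of 42 members (14.3%, against 3.46%, with 0 higher against 3.64%), which were Ifi203, Usp18, Eif2ak2, Zbp1, Isg15 and Psmb9, and the member median was -0.22. Eif2ak2, the RNA-activated kinase PKR, had -0.36 (SE 0.14) in this test and -0.20 in smoke against sham. At 6 weeks 0 of all probes passed (0%), and 3 members were lower (7.14%, against 2.89%) and 0 higher (against 3.66%) at an unadjusted p under 0.05. Sp100 A_51_P305583 had -0.68 (SE 0.16, adjusted p = 0.422) and, without the array labelled 6 week sham m2, -0.79 (adjusted p = 0.012), when 0.0683% of all probes passed. Without that array 4 members were lower (against 3.15%) and 1 was higher (against 4.09%) at an unadjusted p under 0.05.

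The sham groups were also compared. No member passed in 12 week break sham against 12 week sham (4 of all probes, 0.0228%), in 6 week break sham against 6 week sham (51, 0.29%) or in 12 week sham against 6 week sham (0, 0%). In the 6 week arm Ifit3 (-0.40, SE 0.13) and Irf7 (-0.51, SE 0.23) were lower and Ifi47 (0.45, SE 0.19), Sp100 A_51_P301123 (0.44, SE 0.21), Tap2 (0.35) and Psmb10 (0.19) were higher in break sham at an unadjusted p under 0.05 (2 lower against 3.98%, and 4 higher against 5.3%). When 6 week sham m2 was left out these counts turned round, with 4 lower (Sp100 A_51_P305583, Ifit3, Gbp3 and Bst2, against 3.58%) and 2 higher (Ifi47 and Tap2, against 4.46%), and the member median was -0.05, against -0.02 with it. In the 12 week arm 0 were lower (against 4.36%) and Cmpk2, a dim probe, was the 1 higher (0.61, SE 0.20, against 5.19%). Ifi203 had 0.12 and 0.17 in these 2 comparisons.

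**Figure D4:**
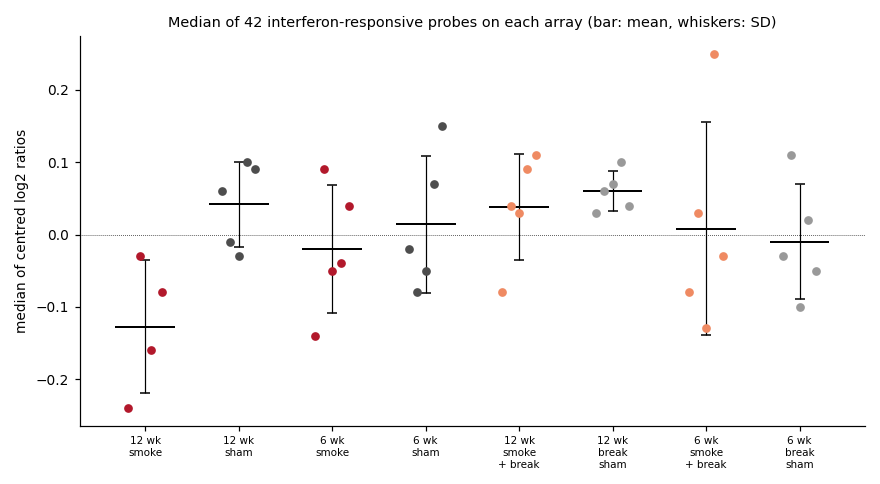
Median over the 42 probes on each array, after each probe was centred on its mean over 39 arrays (points, log2 scale), with the group mean (bar) and SD (whiskers). The 12 week smoke arrays span -0.24 to -0.03 and the 12 week sham arrays -0.03 to 0.10; single arrays of other groups reach 0.25.

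The members can also be read array by array. After each probe was centred on its mean, the median over the 42 probes lay between -0.24 and -0.03 in 12 week smoke, against -0.03 to 0.10 in 12 week sham. In 6 week smoke it lay between -0.14 and 0.09, against -0.08 to 0.15 in 6 week sham. Within the 4 runs that hold both 12 week groups the member median of smoke minus sham was -0.31, -0.13, -0.20 and -0.01. At 6 weeks it was -0.14, 0.05, -0.20 and -0.13. In the 12 week comparison 13 of 42 probes were lower in all 4 runs (31.0%, against 8.93% of all probes). Among them are the 6 probes without overlap between the groups, for which this was fixed. Higher in all 4 runs were 3 (7.14%, against 11.3%), namely Isg20, Trim21 and Cmpk2. The probes of Trim21 and Cmpk2 were dim, and that of Cmpk2 was kept through 12 week smoke alone. At 6 weeks 6 were lower in all 4 runs (14.3%, against 6.61%) and 1 was higher (2.38%, against 8.35%). Outside these groups 2 arrays held the highest values of several members. The array 6 week smoke and break m4 had the highest value of 8 probes, among them Psmb8, Psmb9, Psmb10, Igtp, Ifi47 and Zbp1, and its median was 0.25. The array 6 week break sham m5 had the highest of 7, among them Irf1, Irf9, Stat2, Usp18, Irgm1 and Tap2. Its median was -0.05, and 62.7% of all probes were above the threshold on it. The share of highest values over all probes was not counted, so these counts show nothing particular to the members. The spread within groups was close to that of other probes, with a median SD of 0.26 for members and 0.27 for all probes. Ifi35 (SD 0.13) and Psmb10 (0.14) varied least and Ifih1 (0.51) and Iigp1 (0.44) most.

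The 12 measured genes with ISRE letters before their start had a median log2 fold change of -0.13 at 12 weeks, with 10 of 12 probes below 0. The 19 without them had -0.09, with 14 of 21 probes below 0. At 6 weeks the medians were -0.04 and -0.03. Ifi203, Isg15 and Bst2 were among the genes with the letters, and Usp18 and Zbp1 had no promoter in the table.

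Other genes of the pathway were followed from lists that do not overlap the members. Of 17 probes for interferon receptors and signalling proteins 0 passed at 12 weeks (median -0.06, 11 below 0). Irf3, which switches on interferon genes, had 0.21 (SE 0.08, adjusted p = 0.338), the receptor subunit Il10rb had -0.24 and Irf5 had -0.25. Of 15 interferon genes listed, 9 had a probe on the array and 6 were left by the filter on dim probes. Of these 6 probes for interferon genes themselves 0 passed (median 0.12), the smallest p being that of Ifna9 (0.34, SE 0.17, adjusted p = 0.561, limma). These probes were above the threshold on 22 to 37 arrays. Of 12 probes for nucleic acid sensing 0 passed (median -0.04), and Ddx58, or RIG-I, had -0.22 (SE 0.14). Another 50 probes for 48 further interferon-induced genes had a median of -0.13 at 12 weeks, 36 of 50 below 0 (against 49% of all probes), 11 lower (against 3.86%) and 0 higher (against 5.51%) at an unadjusted p under 0.05, and 0 that passed. Pml, the scaffold of the nuclear bodies that hold Sp100, had -0.28 (SE 0.08, adjusted p = 0.0981), Epsti1 -0.45 (SE 0.14, adjusted p = 0.19) and Tapbp, tapasin, -0.29 (SE 0.11, adjusted p = 0.319). In the average of both durations Zc3hav1, an antiviral protein that binds CpG-rich RNA, fell (-0.30, SE 0.07, adjusted p = 0.027). It is another gene the study listed from these arrays. At 6 weeks this list had a median of -0.03 with 28 of 50 below 0 (against 47.2%).

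Markers of other cell types were read in the same comparisons, and probes passed in the macrophage list only. Of 8 macrophage probes 8 were above 0 at 12 weeks (median 0.67), and the lysosomal protease Ctsd rose (0.69, SE 0.15, adjusted p = 0.0163). In the average Chil3 (1.52), Ctsk (0.77), Marco (0.75), Ctsd (0.63) and Itgax (0.54) rose. The mean of the macrophage probes per array, each centred on its own mean, lay between 0.21 and 0.65 in 12 week smoke, against -0.54 to 0.09 in 12 week sham, and between 0.10 and 0.88 in 6 week smoke, against -0.55 to -0.01 in 6 week sham. For T and NK cells 6 of 7 probes were below 0 at 12 weeks (median -0.10, 0 passed). Their array means were -0.59 to -0.16 in 12 week smoke and -0.23 to 0.21 in 12 week sham. The group medians of these means were close, -0.21 in smoke and -0.20 in sham. At 6 weeks 5 of the 7 probes were below 0 (median -0.19, 0 passed). At 12 weeks B cell probes had a median of -0.03 and plasmacytoid dendritic cell probes 0.01. Siglech, the defining marker of the latter cell type, was above the threshold on 14 of 39 arrays. Neutrophil probes had 0.03, endothelial probes 0.22, epithelial probes -0.16 and red blood cell probes 0.13, with 0 that passed. Whether differences in cell types enter the values of the interferon genes was not tested.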

How the data were processed

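Lung RNA (Cy5) and a universal mouse reference RNA (Cy3) were hybridised in 1 dye orientation to 39 Agilent oligonucleotide arrays. Per the file headers and the study's methods, the deposited spot intensity values are ImaGene medians and means with their local background. The authors also deposited normalized log2 ratios of lung over reference, made with MAANOVA, which served as an alternative and correlated with the ratios used here at 0.975 to 0.996 per array. Here, medians were background-corrected (limma 3.58.1 in R 4.3.3, normexp, offset 50) and normalized by loess within arrays with control spots at weight 0, and spots of a probe were averaged. A probe was kept when its Cy5 signal exceeded the trimmed mean plus 3 trimmed SD (5% trimmed from each end) of the negative control spots on at least 4 arrays of a group, which left 17560 of 20868. Genes were named from the platform annotation, in which 18235 probes have 1 symbol, 30 several and 2603 none. A second Cxcl10 probe carries 2 symbols and was not named.

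Group means of 8 groups and a block of 5 label runs were fitted with lmFit and eBayes, with Benjamini-Hochberg adjustment over all kept probes and a threshold of 0.05. A run starts at each array labelled 6 week smoke in the order of the exposure-date labels. Run 4 holds no 6 week sham and run 5 no 12 week smoke, and the study's own blocks were the dates of hybridization and exposure. Nothing in the labels numbers the mice across groups. The number of arrays limits the precision. The fit was tested on simulated data with independent noise per probe, drawn from the same model that was fitted. That checks the computation only and not the calls made here.

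The members and the other lists were chosen with earlier results of these data known, and so was the rule for the probes given per array. These were all Sp100 and Ifi203 probes, any probe called, and in each role the 2 with the smallest p at 12 weeks and the 1 at 6 weeks. From the other lists, genes called and the 3 with the smallest p at 12 weeks were named. The alternatives were no background subtraction, an offset of 10, spot means, median centring, scale normalization, marked spots left out, the authors' ratios, no filter and a stricter filter, no block and a random block, array weights, only the groups compared, and each array left out. Promoters are from RefSeq (GRCm38.p6).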

Additional observations from a re-analysis of the deposited data

Results flagged for a closer look

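In 6 of 152 groups of arrays 1 array stood far from the others by Dixon's gap over range. Chance alone gives about 1 in 20, which is a larger share than this. Usp18 read -0.57 in 6 week break sham m5, with -1.11 as the next value (ratio 0.831), and Igtp read 1.87 in 6 week smoke and break m4, with 0.86 as the next (ratio 0.808). These are the 2 arrays that held the highest values of 7 and 8 members, and Usp18 and Igtp are themselves among those members. Stat2 read 0.53 in 12 week smoke m1, with 0.93 next (ratio 0.87), and Tap1 read -0.41 in 12 week sham m3, with -0.10 next (ratio 0.775). Trim21 read 0.52 in 6 week smoke and break m1, with 0.06 next (ratio 0.719), and Cxcl10 read -2.13 in 12 week break sham m4, with -1.76 next (ratio 0.712).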

How the results depend on the processing

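Of the counts and medians of the members recomputed, 1118 moved by less than their margin and 26 by more. Counts that were 0 in every fit, as in both break comparisons, are among the 1118. Counts of all probes called, at 12 weeks, at 6 weeks and in the average, moved by more than their margin 30 times. A count was within its margin when it was equal, or close in ratio with neither count at 0. The margin for a median was 0.09, the SD of the member median over arrays within groups. That is larger than the median of -0.03 at 6 weeks. Most of the 1118 come from the 39 fits without 1 array, many of which left out an array outside the groups compared and could move little. Median centring gave 2 members called at 12 weeks with a median of -0.23, 1 called in the 12 week smoke effect minus the break effect, and medians of -0.25 for the 12 week minus the 6 week effect, 0.09 for the 6 week smoke effect minus the break effect and -0.08 for 12 week break sham against 12 week sham. It also split all probes called at 12 weeks into 42 higher and 23 lower, against 66 and 10 with loess. Scale normalization gave 1 at 6 weeks. With marked spots left out, 2 were called at 12 weeks, 1 at 6 weeks and 5 in the average, and in these comparisons 36 of the 42 probes could be fitted, Sp100 A_51_P255016 not among them. Spot means and no block each gave 1 in the average. Array weights gave 1 at 6 weeks, 5 in the average, a median of -0.12 for the 12 week smoke effect minus the break effect and 1 called in the 6 week one. With only the groups compared, 0 were called at 12 weeks and 0 in the average. Counts over all probes ranged over these settings between 11 and 203 at 12 weeks, 0 and 26 at 6 weeks, and 45 and 409 in the average. The share of all probes is not set beside the member count of each setting, so these counts show nothing particular to the members. The causes of the changes were not tested. Over 39 fits without 1 array each, 0 to 2 members were called at 12 weeks, 0 to 1 at 6 weeks, 2 to 3 in the average, and 0 to 1 in each smoke effect minus the break effect. All probes called ranged over these fits between 44 and 91 at 12 weeks, 7 and 33 at 6 weeks, and 106 and 285 in the average. No paired analysis was possible because the labels give no replicate numbers shared between groups; arrays were matched by label run only, as the block of the fit and in the differences within runs. Of 2799 values for single members, 76 changed sign, in 14 of 54 results, and in 4 of them the value was more than 1 SE from 0 before or after. With marked spots left out these were Sp100 A_51_P301123 at 12 weeks (0.27) and in the average (0.08) and Tap1 at 6 weeks (-0.22), and without 12 week smoke m1 Sp100 A_51_P255016 at 12 weeks (-0.22, the range over the fits without 1 array being -0.22 to 0.18). Cmpk2, Irf7 and Mx1 read near background on many arrays, which limits their values. Rsad2, Cxcl10, Parp14 A_51_P341767, Trim21 and Tap1 were dim too, with median signals of 1.25 to 1.59 times the threshold.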
